A study of Mus musculus with 6 samples.

Results

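Complex I, complex III and the ATP synthase were described through their nuclear genes, taken as the mouse genes whose symbols begin with Ndufa, Ndufb, Ndufc, Ndufs, Ndufv, Uqcr or Atp5. RefSeq listed 90 such genes, 74 protein coding and 16 of other types, and 71 of them had a probe on the array, 95 probes in all. The protein coding genes Ndufb1, Ndufb4b and Ndufb4c had no probe. The probe of highest mean signal stood for each gene, and 70 of the 71 genes passed the filter, out of 24127 genes tested. The exception was Ndufa7, a complex I subunit whose only probe was marked as an outlier spot at ZT4; its levels from ZT0 to ZT20, on the scale explained below, were 5.79, 5.19, 3.69, 4.20, 4.29 and 3.86. All 70 probes used were well above background on all 6 arrays and 0 were saturated, so no gene had entered through a few bright arrays.

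The samples were pancreatic islets of male C57BL6 mice aged 8 weeks, on chow, in a cycle of 12 h light and 12 h dark. Collection ran every 4 h over 6 zeitgeber times (ZT), counted from lights on, with lights off at ZT12. Each time point was 1 single-colour array of RNA pooled from 3 to 5 mice, with no second pool at any time. No mutant or treatment was part of the design.

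Complex I takes electrons from NADH, complex III passes them from ubiquinol to cytochrome c, and the proton gradient that these complexes build drives the ATP synthase. In pancreatic beta cells, ATP made from glucose in this way closes potassium channels and so leads to insulin release. Most subunits are encoded in the nucleus, and a smaller group, not measured here, in mitochondrial DNA. In bulk tissue, fewer cells of a type and less RNA per cell cannot be told apart.

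The levels below are log2 of the processed signal divided by the array's 75th percentile, so that 0 is a probe as bright as that percentile. Where 6 values follow a gene's name, they run in the order ZT0, ZT4, ZT8, ZT12, ZT16, ZT20. A gene's deviation is its level on an array minus its mean over the 6 arrays. Because a probe's brightness depends on its sequence, no gene's level was set against another's. The authors' deposited log2 values, whose columns shared nearly the same median (8.62 to 8.63), were analysed alongside.

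Between 66.1% (ZT4) and 84.4% (ZT0) of spots were well above background, and the 75th percentile ran from 505.5 at ZT4 to 2090 at ZT8. Outlier spots numbered 1743 at ZT0 and 166 to 247 elsewhere. ZT8, ZT12, ZT16 and ZT20 shared 1 scan, ZT4 had its own, and ZT0 was scanned alone on another date, so scan and time cannot be told apart for ZT0 and ZT4. Islet markers were present: 25 of 26 endocrine genes were measured, at a summed signal of 566 (ZT12) to 2438 (ZT0) times the array's 75th percentile, and Iapp, which encodes amylin, was the brightest of them. All 12 lymphocyte markers were also well above background on every array. Their summed signal was 617 at ZT4 and 382 at ZT12, against 133 at ZT0, 136 at ZT8, 35.2 at ZT16 and 20.0 at ZT20. Acinar markers summed to 722 (ZT12) to 2699 (ZT4).

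The first question was whether the genes of the 3 complexes followed a 24 h rhythm. In limma's moderated F test of a 24 h cosine, 0 of the 70 genes passed after Benjamini-Hochberg adjustment over all genes tested. Over the whole array 0 of 24127 genes (0%) passed, with a smallest adjusted p of 0.754, and with the authors' values again 0% (smallest adjusted p 0.693). At an unadjusted p under 0.05 there were 0 of the 70 genes against 965 genes, or 4% of those tested (4.69% and again 0 of the 70 with the authors' values). The smallest unadjusted limma p among the 70 was 0.118, for Ndufaf5, an assembly factor of complex I (0.0839 with the authors' values). The count of 965 depended on single arrays, and was 4026 when ZT8 was left out, 2452 for ZT12, 417 for ZT16 and 347 for ZT20. Without ZT12, 1 of the 70 genes, again Ndufaf5, had an unadjusted limma p under 0.05 (0.0350).

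The median fitted curve was shallower than that over all genes tested. The fitted peak minus trough had a median of 0.86 log2 units over the 70 genes, from 0.10 (Atp5g1) to 2.07 (Ndufaf5), against 1.33 over all genes tested. With the authors' values the medians were 0.65 and 1.28. The measured range from lowest to highest array had a median of 1.72 log2 units for the 70 genes and 2.10 for all genes (1.28 and 2.0 with the authors' values). Within the 4 arrays of the shared scan these medians were 0.75 and 1.21, and 0.68 and 1.18 with the authors' values. Of the 70 genes, 50 were in the brightest 10% of genes tested, and the part of brightness in these differences was not tested.

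The time of the fitted peak depended on the scaling. With the 75th percentile, 50 of the 70 genes had a fitted peak in the light phase, and with the authors' values 16 did, with 54 in the dark phase. Over all genes tested the share with a peak in the light was 45.5% and 43.9%. The scalings differed in how many genes they placed highest at ZT4. With the 75th percentile, 50 genes were highest at ZT4, 9 at ZT16, 6 at ZT0, 4 at ZT12, 1 at ZT20 and 0 at ZT8. With the authors' values the most frequent highest array was ZT16 (28 genes), followed by ZT4 (22), ZT20 (11), ZT0 (4), ZT8 (3) and ZT12 (2). Of all 24127 genes tested, 5639 were highest at ZT4 with the 75th percentile, as were 1372 of the 2413 genes in the brightest 10%. The authors' values placed 5011 of all genes and 556 of the bright genes highest at ZT16.

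The median deviation of the 70 genes from ZT0 to ZT20 was -0.38, 0.90, -0.55, 0.05, 0.05 and -0.10 with the 75th percentile. In the authors' values it was -0.50, 0.15, -0.15, -0.14, 0.34 and 0.30 in the same order, and with cyclic loess normalization -0.44, 0.29, -0.21, -0.13, 0.25 and 0.24. Low values at ZT0 were thus common to the 3 scalings, whereas the height of ZT4 was not. The median of all genes stayed between -0.03 and 0.06 with the 75th percentile and between -0.10 and 0.10 in the authors' values. Brightness moved with the ZT4 result. The brightest 10% of genes on the array (2413 genes, among them 50 of the 70) had a median of 0.81 at ZT4 with the 75th percentile and 0.05 in the authors' values. The same bright genes were at 0.09 at ZT0 and -0.39 at ZT8 with the 75th percentile. Lymphocyte markers were also highest at ZT4, with a median deviation of 2.77 (1.95 in the authors' values, where ZT12 was at 2.01), and endocrine markers were at -1.54 there; the part of these cell types in the result was not tested.

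**Figure D1:**
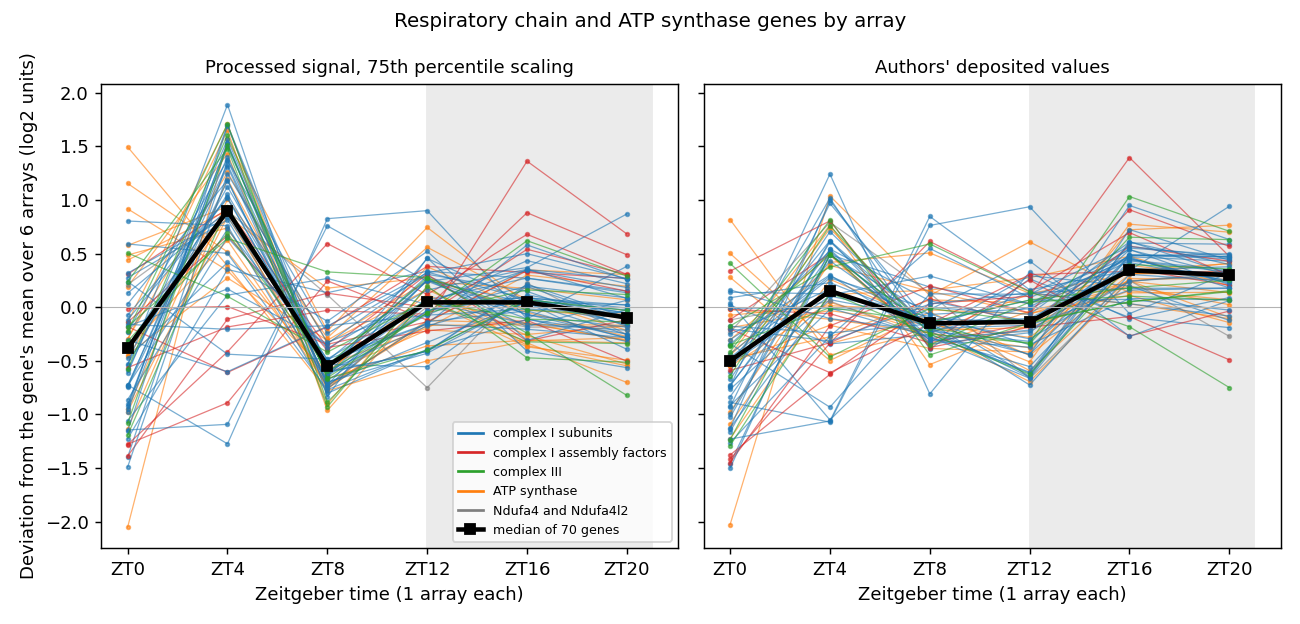
Deviation of each of the 70 genes from its own mean over the 6 arrays, in log2 units, against zeitgeber time, for the 75th percentile scaling on the left and the authors' deposited values on the right. Each thin line is 1 gene, coloured by complex, the black line is the median of the genes, and grey marks the dark phase. The black line peaks at ZT4 (0.90) on the left and at ZT16 (0.34) on the right, and its lowest points are ZT8 (-0.55) on the left and ZT0 (-0.50) on the right.

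Single arrays were compared with the median of the other 5, without a test, and a gene was counted when it lay at least 2-fold away. At ZT4, 37 of the 70 genes were above and 3 below by this measure with the 75th percentile, where the shares of all genes were 21.8% above and 21.8% below. With the authors' values 5 genes were above (17.7% of all genes) and 4 below (18.9%). At ZT0, 4 genes were above (16.8% of all genes) and 17 below (19.7%), or 1 above (13.5%) and 22 below (22.3%) in the authors' values. The ZT0 count below, 24.3% or 31.4% of the genes, was thus near the array's own share with the 75th percentile and somewhat above it in the authors' values.

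The 4 arrays of the shared scan held few such genes. At ZT8, 0 genes were above (8.5% of all genes) and 3 below (2%), namely Atp5md, Atp5mpl and Uqcrh, against 0 (7.74%) and 0 (2.91%) in the authors' values. ZT12 had 1 gene above (17%) and 0 below (20.3%), with 0 (17.1%) and 0 (17.6%) in the authors' values. At ZT16 the counts were 1 above (10.7%) and 0 below (13.8%), with 4 (12%) and 0 (12.8%) in the authors' values. ZT20 had 0 above (12.8%) and 1 below (12.5%), with 1 (12.1%) and 0 (13.5%) in the authors' values. Apart from the ZT8 genes that lay below, each of these counts was a smaller share of the 70 genes than of all genes. The part of brightness in these shares on the shared scan was not tested. Relative to one another the genes also differed least there: the standard deviation over the 70 genes of their distance from the median gene was 0.31 to 0.39 log2 units on these arrays, against 0.68 at ZT0 and 0.73 at ZT4.

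Complex I has a peripheral arm in the matrix, which oxidises NADH and carries the electrons to quinone, and a membrane arm, which pumps protons. The 15 measured genes of the peripheral arm had median deviations of -0.59 at ZT0 and 1.01 at ZT4, and 11 of the 15 were highest at ZT4. Their ZT4 median in the authors' values was 0.27 and their highest median was at ZT16 (0.47). Ndufv3, a small subunit of the NADH-oxidising tip, was at 5.27, 6.40, 4.78, 4.97, 5.60 and 5.29. Its highest array was ZT4, and in the authors' values ZT16. Ndufs3, a core subunit near the quinone site, was at 4.17, 6.08, 4.11, 4.72, 4.85 and 4.59, which is a span of 3.92-fold between ZT4 and ZT8. Ndufa9, an accessory subunit at the junction of the arms, had the widest range of this arm, at 2.17, 5.01, 2.69, 3.78, 3.37 and 2.93. It was highest at ZT4 and lowest at ZT0, 7.18-fold apart, and 4.37-fold apart in the authors' values, where ZT4 and ZT0 were again the extremes.

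Ndufs1, the largest core subunit, which binds iron-sulfur clusters, was not high at ZT4, at 2.36, 2.06, 2.49, 2.98, 3.16 and 2.93; ZT4 was its lowest array in the authors' values too.

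In the membrane arm, 13 of 19 genes were highest at ZT4, and the medians were -0.54 at ZT0 and 1.02 at ZT4. The counts in the authors' values were 11 of 19 at ZT16 and 6 at ZT4. Ndufb11, an accessory subunit of the distal membrane arm, was at 6.49, 6.44, 4.88, 5.28, 5.57 and 5.43. High levels were thus shared by ZT0 and ZT4, whereas in the authors' values ZT16 was the highest. Ndufa13, also called GRIM-19, had a different shape, at 4.36, 6.83, 4.78, 5.62, 5.26 and 5.14, with ZT0 the lowest. Ndufb8, an accessory subunit of the distal membrane arm, was at 1.97, 4.71, 3.13, 3.50, 3.81 and 3.65. It was low at ZT0 alone, 3.19-fold below the median of the other arrays, and 3.96-fold in the authors' values.

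Ndufa10, an accessory subunit on the matrix face of the membrane arm, was at -1.99, -2.54, -0.44, -0.37, -1.38 and -0.89. Its levels at ZT8 and ZT12 were the highest and those at ZT0 and ZT4 the lowest, with 4.51-fold between ZT12 and ZT4 and 4.02-fold in the authors' values. After subtracting each array's median over the 70 genes from its levels, it lay 2.29 log2 units below its mean at ZT4, the largest departure of the 70 genes with the 75th percentile. It lay 1.32 below in the authors' values, where Atp5o (1.5 below at ZT0) and Atp5l (1.34 above at ZT0) departed further. Ndufab1, the mitochondrial acyl carrier protein, which is also a complex I subunit, was at -1.16, 0.88, -1.16, -0.18, -0.62 and -0.37. It stayed highest at ZT4 in the authors' values too, 2.55-fold above the median of the other arrays.

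The 8 assembly factors of complex I, proteins that build the complex without staying in it, did not share the shape of the subunits. Their median deviations from ZT0 to ZT20 were -0.37, -0.15, -0.11, -0.03, 0.44 and 0.29. The 35 subunits, the acyl carrier included, stood at -0.59, 1.02, -0.55, 0.04, 0.07 and -0.05. In the authors' values the medians of the assembly factors were -0.40, -0.25, -0.06, 0.02, 0.47 and 0.31, close to those above, and 6 of 8 were highest at ZT16 (5 of 8 with the 75th percentile). The subunits had 0.44 at ZT16 and 0.31 at ZT20 in the authors' values, so that on those arrays the 2 groups lay close together with that scaling. The difference between the 2 groups was not tested.

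Ndufaf5, which hydroxylates the subunit NDUFS7, had the widest range of the assembly factors. It was at -5.16, -4.78, -3.64, -4.01, -2.52 and -3.20. ZT16 was the highest array and ZT0 the lowest, 6.23-fold apart, and ZT4 was low as well. The fitted peak minus trough was 2.07 ± 0.86 (SE) at ZT15.2, with an unadjusted limma p of 0.118 and an adjusted limma p of 0.754. A second Ndufaf5 probe, highest at ZT4, was well above background on 2 arrays alone, ZT0 and ZT4, and was left out.

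Ndufaf3 and Ndufaf4 act as a pair in building the quinone-binding module. Ndufaf3 was at -1.77, -0.91, 0.10, -0.37, 0.19 and -0.18, lowest at ZT0 and highest at ZT16, 3.89-fold apart. The Ndufaf4 probe used was at 0.35, -0.08, 0.34, 0.91, 0.85 and 0.80, lowest at ZT4 and within 1.98-fold throughout. Its other passing probe was at -1.37, -0.98, -0.48, -0.26, 0.01 and 0.06, lowest at ZT0 and highest at ZT20. Ndufaf7, a methyltransferase, was at 0.46, 0.84, 0.99, 0.96, 1.56 and 1.33, with ZT16 the highest and ZT0 the lowest. Ndufaf1, which acts early in assembly of the membrane arm, was the exception among those named, highest at ZT4, at 0.58, 1.39, 0.32, 1.03, 0.41 and 0.61. Of the other assembly factors, Ndufaf8 was also highest at ZT4 (1.08), while Ndufaf2 (1.33) and Ndufaf6 (0.79) were highest at ZT16.

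Ndufa4 carries a complex I symbol, but its protein is now assigned to complex IV, and Ndufa4l2 is its hypoxia-induced relative. Ndufa4 was at 5.08, 5.76, 4.14, 4.88, 4.69 and 4.70, highest at ZT4 and lowest at ZT8. Ndufa4l2 was at -0.33, 0.81, 0.02, -0.85, 0.13 and -0.35, highest at ZT4 and lowest at ZT12. The ZT4 excess over the median of the other arrays was 2.09-fold for Ndufa4 and 2.19-fold for Ndufa4l2 with the 75th percentile, and 1.13-fold and 2.03-fold in the authors' values. High Ndufa4l2 at ZT4 thus remained with that scaling, and high Ndufa4 did not.

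**Figure D2:**
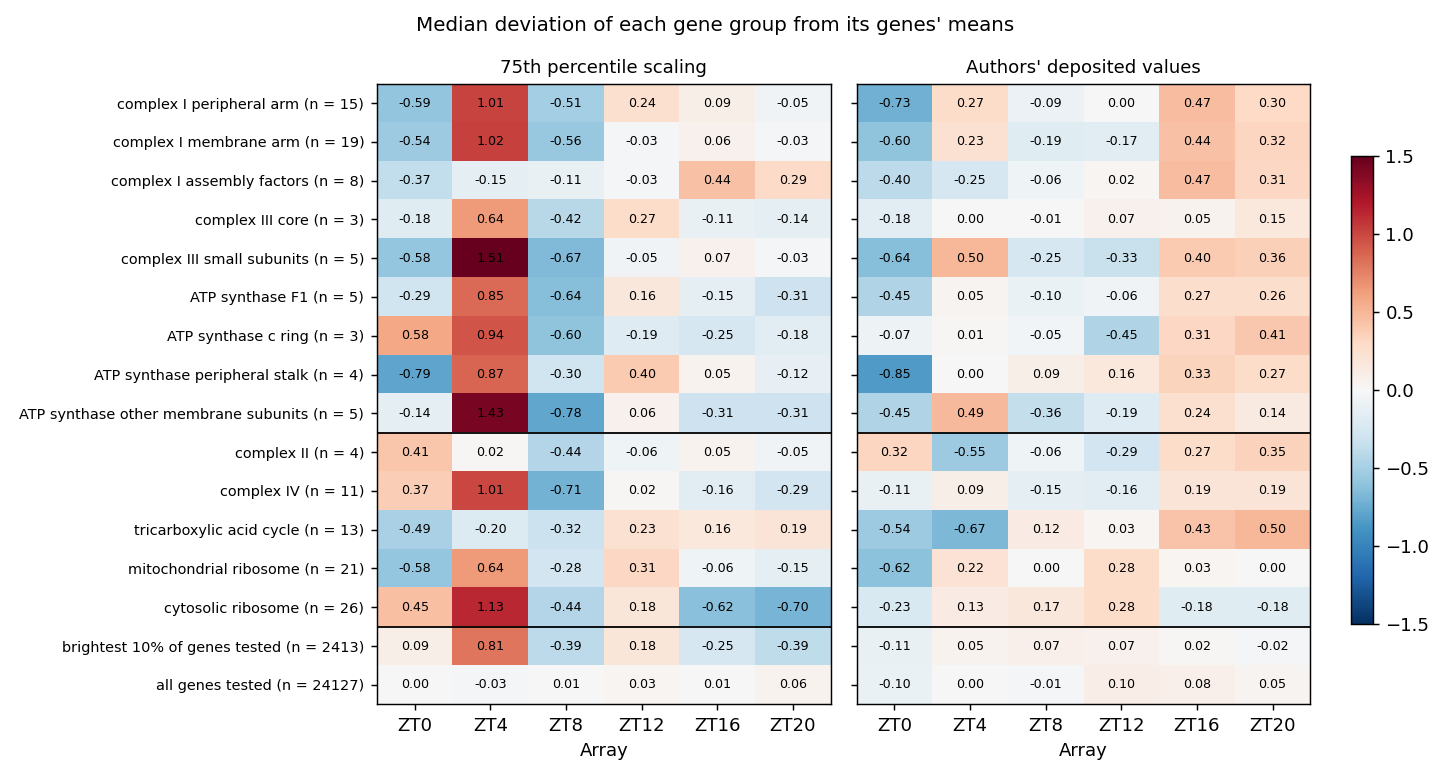
Median deviation, in log2 units, of each group of genes (rows, with the number of genes measured) on each array (columns), for the 75th percentile scaling and the authors' deposited values. Red is above and blue below the genes' own means. The assembly factors of complex I are the one group above the first black line with no red cell at ZT4 with the 75th percentile (-0.15), and ZT4 is paler in the authors' values for the subunit groups.

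Complex III has a pair of core proteins, the Rieske iron-sulfur protein, cytochromes and several small subunits. Uqcrc1, 1 of the core proteins, was at 1.19, 2.01, 1.70, 1.64, 1.13 and 0.54, lowest at ZT20, where it lay 2.14-fold below the median of the other arrays. Uqcrc2, the other core protein, was at 3.60, 4.61, 3.37, 4.19, 3.89 and 3.84 and spanned 2.35-fold. Uqcrfs1, the Rieske protein, was at 4.24, 3.84, 3.32, 3.80, 3.63 and 3.60 and was highest at ZT0, unlike the rest of the complex. Uqcrc1 spanned 2.53-fold in the authors' values, Uqcrc2 1.52-fold and Uqcrfs1 1.83-fold.

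By the probes used, all 5 small subunits of complex III were highest at ZT4, with a median deviation of 1.51 there. In the authors' values 3 of the 5 were so, with a median of 0.50. Uqcrh, the hinge protein that meets cytochrome c1, was at 6.05, 7.29, 4.88, 6.01, 5.34 and 5.30. Uqcr10 was at 4.59, 6.53, 3.93, 4.88, 4.50 and 4.48 with the probe used. A second passing Uqcr10 probe had the same extremes. The dimmest was at -0.09, 2.07, 1.16, 1.27, 1.35 and 1.15, also highest at ZT4 but lowest at ZT0. For the probes used, the ZT4 array lay 3.86-fold above the median of the other arrays for Uqcrh and 4.09-fold for Uqcr10. These were 1.37-fold and 1.94-fold in the authors' values. Uqcrq was at 4.15, 6.74, 4.57, 5.18, 5.39 and 5.35, and its low ZT0 level, 2.29-fold below the median of the other arrays, was 3.30-fold below in the authors' values.

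The ATP synthase has a catalytic head in the matrix (F1), a rotating ring of c subunits in the membrane, a peripheral stalk that holds the head still, and further membrane subunits that join the enzyme in dimers. Atp5b, the catalytic beta subunit, was at 6.67, 7.13, 5.47, 6.10, 6.08 and 5.92. Atp5a1, the alpha subunit, was at 6.88, 6.24, 5.06, 5.36, 5.41 and 5.39. Alpha and beta sit in the head in equal number, but their probes differed in the order of the arrays: Atp5a1 was highest at ZT0, 2.80-fold above the median of the other arrays, and Atp5b at ZT4, 2.08-fold above. In the authors' values the ZT0 level of Atp5a1 was 1.52-fold above the median of the others and still its highest, while Atp5b was highest at ZT16 and spanned 1.59-fold. The other genes of the head, Atp5c1, Atp5d and Atp5e, were highest at ZT4 with the 75th percentile.

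Atp5g1, Atp5g2 and Atp5g3 encode the same mature c subunit with different targeting sequences, and the probes used for them differed in shape. Atp5g1 was at 3.94, 6.08, 4.35, 4.69, 5.19 and 5.08, lowest at ZT0 and highest at ZT4. Atp5g2 was at 6.35, 6.71, 5.18, 5.90, 5.44 and 5.07, high at both ZT0 and ZT4. Its other passing probe was at 6.50, 6.01, 5.02, 5.60, 5.15 and 5.11, highest at ZT0 and lowest at ZT8, the same extremes as the probe of Atp5g3. Atp5g3 was at 6.49, 5.92, 4.96, 5.36, 5.32 and 5.40, with ZT0 the highest. At ZT0, Atp5g1 was thus 2.21-fold below and Atp5g3 2.19-fold above the median of the other arrays. In the authors' values Atp5g1 was 2.55-fold below at ZT0, Atp5g3 was 1.25-fold above, and Atp5g2 spanned 1.27-fold in all, the narrowest range of the 70 genes. The fitted peak minus trough was 0.10 ± 0.98 (SE) for Atp5g1, 1.05 ± 0.83 for Atp5g2 and 1.1 ± 0.73 for Atp5g3, with unadjusted limma p values of 0.995, 0.485 and 0.377.

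By the probes used, 4 of 4 genes of the peripheral stalk were highest at ZT4 with the 75th percentile. By the same probes, 3 of 4 were lowest at ZT0 with either scaling. Atp5o, the OSCP subunit that ties the stalk to the head, had the widest range of all 70 genes, at 0.33, 3.95, 2.16, 3.12, 2.41 and 2.31. It was 12.3-fold higher at ZT4 than at ZT0, and 8.36-fold in the authors' values, where the same arrays were the extremes. Without ZT0 its other 5 arrays lay within 2.16 to 3.95. Atp5h, subunit d, was at 3.55, 5.69, 4.39, 5.24, 4.75 and 4.46 with the probe used, again lowest at ZT0. Its other passing probe was at 4.08, 6.10, 4.09, 5.01, 4.50 and 3.95, also highest at ZT4 but lowest at ZT20. Atp5j, coupling factor 6, was at 5.66, 5.92, 4.45, 5.01, 5.02 and 5.01, with ZT0 near its highest level.

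Among the other membrane subunits, Atp5l, subunit g, which supports dimers of the enzyme, stood apart. It was at 6.98, 5.87, 4.71, 4.99, 5.17 and 5.21. The ZT0 level was the highest, 3.50-fold above the median of the other arrays and 2.06-fold in the authors' values, the only gene of the 70 above 2-fold at ZT0 in those. Atp5k, subunit e, with which Atp5l works, was instead highest at ZT4, at 4.43, 6.38, 3.77, 4.81, 4.58 and 4.42. Atp5mpl, the proteolipid of the membrane part, was at 5.69, 6.93, 4.59, 5.68, 5.14 and 4.95, also highest at ZT4. The ZT4 excess of Atp5k was 3.87-fold and fell to 1.90-fold in the authors' values.

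**Figure D3:**
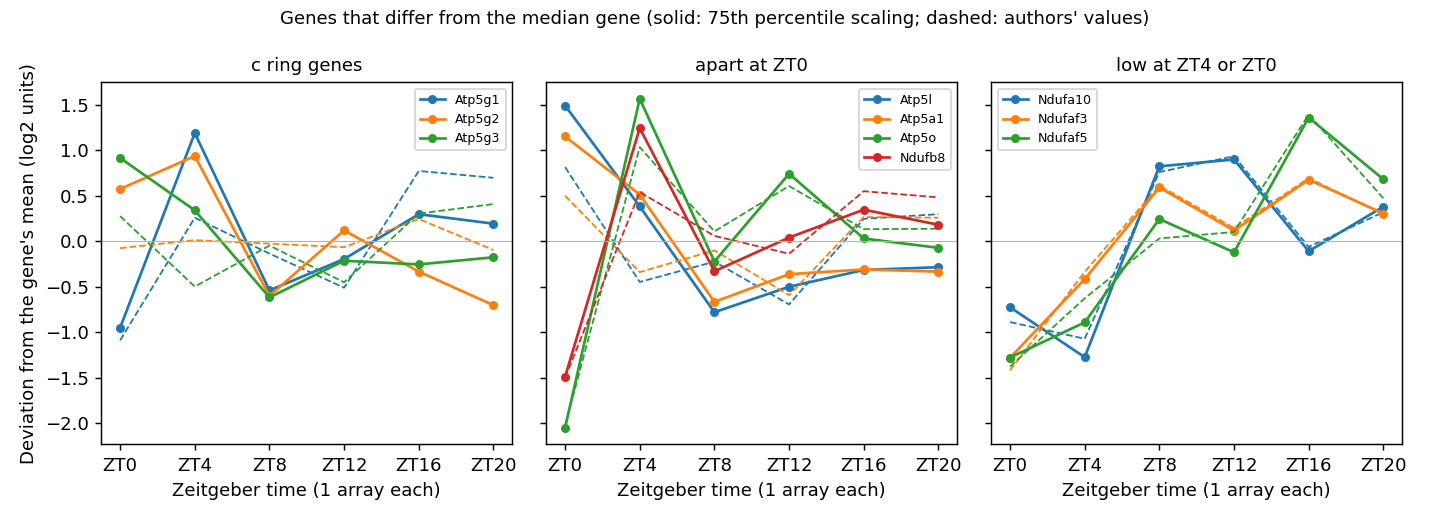
Deviation from the gene's mean, in log2 units, against zeitgeber time, for the 3 c ring genes (left), 4 genes far from the median gene at ZT0 (middle) and 3 genes low at ZT0 or ZT4 (right). Solid lines are the 75th percentile scaling and dashed lines the authors' values, with 1 array per point. Atp5l and Atp5o lie at opposite ends at ZT0 with both scalings, and Ndufa10 is low at both ZT0 and ZT4.

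The promoters of the c ring genes, Atp5l and Atp5o are shown because these genes have related roles in 1 enzyme and differed widely at ZT0. Each is the 250 bases before the RefSeq start of the gene in GRCm38.p6, on the minus strand and written in the direction of the gene. The positions are chr11:96075632-96075881 for Atp5g1, chr15:102671048-102671297 for Atp5g2, chr2:73911327-73911576 for Atp5g3, chr9:44920743-44920992 for Atp5l and chr16:91931631-91931880 for Atp5o. Capitals mark matches, on either strand, to the E-box CACGTG, the core GCGCATGC of the NRF1 site, the ETS core CCGGAAG, the YY1 core AAGATGG and the ERR core AAGGTCA.
Atp5g1: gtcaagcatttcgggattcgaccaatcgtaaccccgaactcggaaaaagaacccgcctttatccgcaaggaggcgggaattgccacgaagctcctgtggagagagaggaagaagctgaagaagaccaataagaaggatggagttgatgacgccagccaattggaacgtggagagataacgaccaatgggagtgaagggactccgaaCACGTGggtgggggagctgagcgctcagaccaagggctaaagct
Atp5g2: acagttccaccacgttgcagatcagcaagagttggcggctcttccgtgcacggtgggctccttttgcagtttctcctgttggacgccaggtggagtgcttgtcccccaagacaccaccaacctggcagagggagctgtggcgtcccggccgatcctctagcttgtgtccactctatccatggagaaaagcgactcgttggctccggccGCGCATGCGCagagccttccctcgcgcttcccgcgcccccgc
Atp5g3: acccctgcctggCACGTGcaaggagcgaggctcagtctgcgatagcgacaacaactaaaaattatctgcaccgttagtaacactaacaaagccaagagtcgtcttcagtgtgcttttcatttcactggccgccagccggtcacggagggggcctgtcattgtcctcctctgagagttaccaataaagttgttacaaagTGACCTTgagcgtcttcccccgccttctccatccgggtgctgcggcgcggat
Atp5l: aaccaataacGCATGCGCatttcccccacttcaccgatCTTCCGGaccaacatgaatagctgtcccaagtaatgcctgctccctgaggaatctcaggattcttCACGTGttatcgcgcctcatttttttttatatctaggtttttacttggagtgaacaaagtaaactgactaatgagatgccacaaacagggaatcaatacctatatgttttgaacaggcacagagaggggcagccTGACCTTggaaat
Atp5o: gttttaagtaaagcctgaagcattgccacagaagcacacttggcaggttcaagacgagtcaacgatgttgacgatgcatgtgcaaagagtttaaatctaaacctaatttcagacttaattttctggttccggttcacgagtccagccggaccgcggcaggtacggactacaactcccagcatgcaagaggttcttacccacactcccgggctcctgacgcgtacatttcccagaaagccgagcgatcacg

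Atp5g1 held 1 E-box, Atp5g2 overlapping matches to the NRF1 core on both strands, and Atp5g3 an E-box and an ERR core. Atp5l held 4 of the 5 motifs, more than any other of these genes, and Atp5o held none of these letters in its window. NRF1, ETS factors of the GABP type, YY1 and the ERR receptors are known regulators of respiratory chain genes, and the E-box is the site of CLOCK and BMAL1. In windows of 300 bases, 250 before and 50 after the start, 60 of the 71 genes had an entry. The NRF1 core was found in 10 of these 60 (16.7%), against 3.05% of 27025 genes with a window. Shares for the ETS core were 23.3% against 9.93%, for the YY1 core 18.3% against 7.28%, for the ERR core 11.7% against 5.38% and for the E-box 10% against 8.09%. Of the 11 genes with a YY1 core, 9 had it after the start, and all 6 E-boxes lay before it. The 27025 genes were all those with a window, not only the 16805 tested with a symbol, and base composition was not matched. A match is a description of the letters and not a site shown to be bound.

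Different probes of the same gene were then compared. For 17 genes at least 2 probes passed the filter. In 12 of the 17 all probes had the same highest array, and in 6 the same lowest array. The distance between the probes' deviations had a median of 0.69 log2 units at ZT0 and 0.51 at ZT4, against 0.25, 0.14, 0.12 and 0.26 on the arrays from ZT8 to ZT20. ZT0 and ZT4, on which the genes differed most from one another, were thus also the arrays on which probes of 1 gene differed most.

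Atp5l was a case where the probes ran together. Its 4 passing probes had ZT0 deviations of 1.49, 1.07, 1.35 and 2.30, all 4 were highest at ZT0, and all 4 were lowest at ZT8. The 3 probes of Uqcrb, a small subunit at a quinone site of complex III, were all lowest at ZT0 (-1.19, -1.62 and -0.89). The last of these probes was highest at ZT16 and the others at ZT4. At ZT0, Ndufv3 was the opposite case, with deviations of -0.12 for the probe used and -1.82 for the other. The probes of Ndufb6 differed at ZT4, at 1.18 and -0.03. The second Ndufb11 probe was not well above background at ZT4, so its distance from the other probe there is uncertain, although it enters the counts and medians above. Ndufb5 was represented by its dimmer probe, which was flat (range 0.56), because the brighter one was an outlier spot at ZT0; that probe was at 4.33, 5.08, 3.78, 4.21, 4.17 and 4.08. Atp5o, Atp5g1, Atp5g3, Atp5a1 and Ndufa10 each had 1 probe, so their departures had no such check. RefSeq lists 16 genes with these symbol prefixes that are not protein coding, and signal from near-identical copies was not tested.

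**Figure D4:**
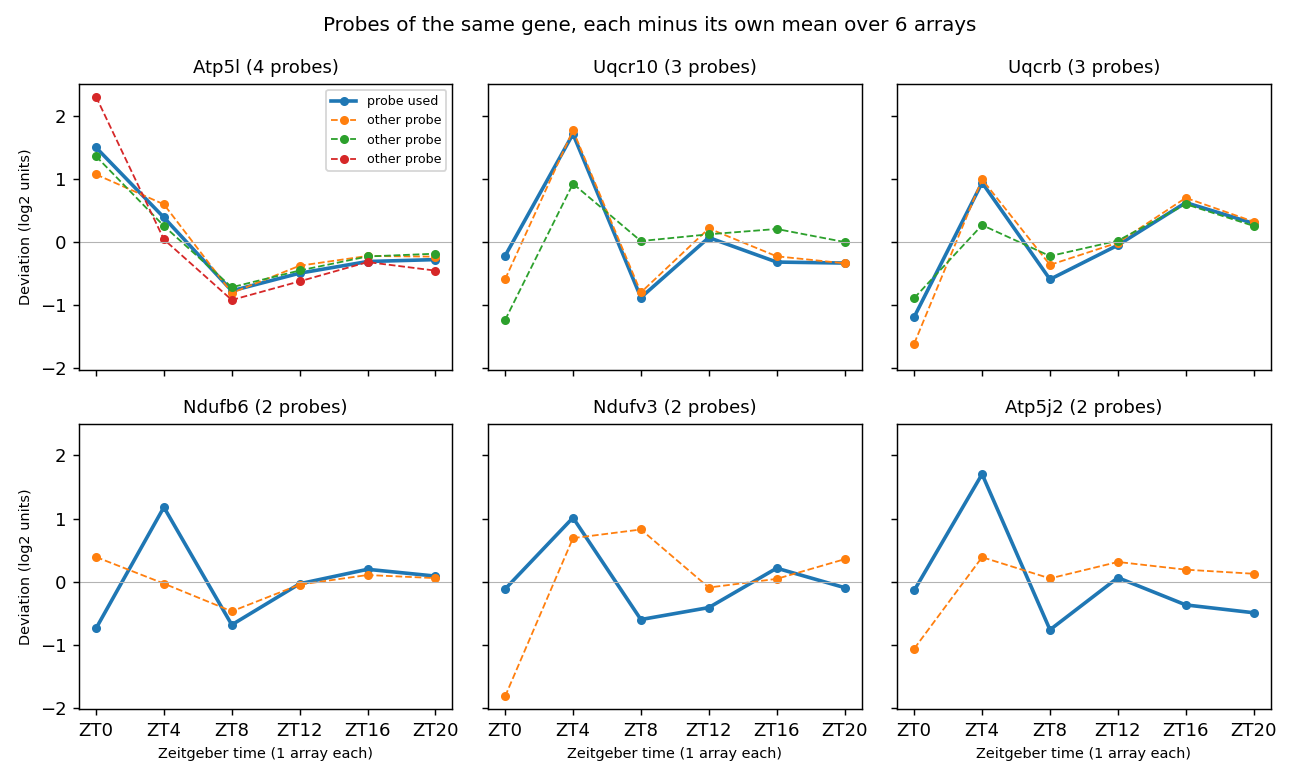
Deviation of each probe from its own mean over the 6 arrays, in log2 units with the 75th percentile scaling, for 6 genes with several probes. The thick line is the probe used and dashed lines are the others. The 4 Atp5l probes share 1 shape, while the Ndufv3 probes part at ZT0 and ZT8. The Atp5j2 probes part at ZT0, ZT4 and ZT8, and most at ZT4 (1.70 for the probe used and 0.39 for the other).

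Other genes of mitochondrial metabolism were set beside the 3 complexes, and in each list 0 genes passed the limma test. The 11 complex IV genes had medians of 0.37 at ZT0, 1.01 at ZT4 and -0.71 at ZT8. Complex IV thus resembled the 3 complexes at ZT4 and ZT8 but not at ZT0, where they were at -0.38. With the authors' values the medians of complex IV were -0.11 at ZT0, 0.09 at ZT4 and -0.15 at ZT8. The 4 genes of complex II, succinate dehydrogenase, which links the chain to the tricarboxylic acid cycle, were at 0.41 at ZT0 and 0.02 at ZT4, or 0.32 and -0.55 in the authors' values. The 13 genes of the tricarboxylic acid cycle were at -0.49 at ZT0 and -0.20 at ZT4, or -0.54 and -0.67. Low levels at ZT0 were thus shared by the cycle and the 3 complexes, and a high median at ZT4 was not. These differences between lists were not tested.

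The 21 genes of the mitochondrial ribosome had medians of -0.58 at ZT0 and 0.64 at ZT4, and the 14 import genes -0.35 and 0.95. Their ZT4 medians in the authors' values were 0.22 and 0.51. The 26 genes of the cytosolic ribosome, as an abundant class outside mitochondria, were at 0.45 at ZT0, 1.13 at ZT4, -0.62 at ZT16 and -0.70 at ZT20. The ZT0 median changed sign in the authors' values, to -0.23, and that of ZT4 was 0.13. The ribosomal genes were unlike the 3 complexes at ZT16 and ZT20 with either scaling, at -0.18 and -0.18 in the authors' values against 0.34 and 0.30. The 11 regulators of mitochondrial biogenesis, such as PGC-1 coactivators and NRF1, stayed between -0.37 (ZT8) and 0.33 (ZT12). The 15 assembly factors outside the Nduf family were at 0.62 at ZT4, against -0.15 for those with an Ndufaf symbol, and at 0.11 against -0.25 in the authors' values. Of 15 measured core clock genes, 0 passed the limma test and 2 had an unadjusted limma p under 0.05, both with a peak in the light phase.

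Within the shared scan alone the 70 genes moved little. Their median deviations from the mean of those 4 arrays from ZT8 to ZT20 were -0.38, 0.13, 0.16 and 0.03, and 55 of the 70 were lowest at ZT8. Of all 24127 genes tested, 5072 were lowest at ZT8 within this scan, as were 885 of the 2413 genes in the brightest 10%. In the authors' values the medians of the 70 genes were -0.22, -0.25, 0.26 and 0.18, with 42 genes highest at ZT16 and 37 lowest at ZT12. Over all genes tested those counts were 7035 and 8250 in the authors' values, and over the bright genes 784 and 915. The median of the 70 genes at ZT16 stood above that at ZT8 with both scalings, whereas ZT12 changed sides. Endocrine markers had their lowest median at ZT12 (-2.73 within this scan, -2.87 in the authors' values) and stood at 1.06 at ZT16 (1.05), while lymphocyte markers were at 2.78 at ZT12 and -2.26 at ZT16. The part of these cell types in the values of the 3 complexes was not tested.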

How the data were processed

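Total RNA of islets at 6 zeitgeber times was hybridised to 1 Cy3 array each. Per the file headers and the submitters' processing notes, Agilent Feature Extraction 11.0.1.1 gave the deposited processed signal, a linear intensity that is background-subtracted and not normalized between arrays. The authors' deposited value table holds log2 values. Over probes, Pearson's r between each column and the matching array's log2 processed signal was 0.9987 to 0.9998, and the columns had nearly equal medians, as quantile normalization gives. The steps behind it are not given in the sources used here.

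Control spots were left out, and spots of a probe were averaged without outlier spots unless all were marked, giving 39429 probes. Processed signal was divided by the 75th percentile of the array and put on the log2 scale. RefSeq accessions, without versions, gave symbols to 27234 probes (69.1%); the names are those of GRCm38.p6, while the array design names another build, so coordinates are printed only for RefSeq promoters. Probes well above background on at least 3 arrays, with no array on which every spot was an outlier, were tested (28794 probes). The outlier condition removed 1414 probes, 1376 of them marked at ZT0. With the brightest probe per gene, 24127 genes remained, of which 16805 had a symbol.

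A 24 h cosine was fitted with limma 3.58.1 in R 4.3.3 (3 residual and 4.04 prior degrees of freedom), with Benjamini-Hochberg adjustment over all genes and a threshold of 0.05. With 1 pool per time point, the p-values measure scatter about the curve, and no test between times was made; the number of arrays limits the precision. The fit was tested on simulated data: of 200 changed genes among 24127, with noise of 0.2 log2 units, it called 66% at a peak minus trough of 1 log2 unit and 100% at 2, 4 and 6. That noise is far below the scatter in the data (the standard errors of the 70 genes' fitted peak minus trough were 0.66 to 1.22 log2 units), so these shares do not apply to them. An array was compared with the median of the other arrays, at 2-fold or more.

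Genes with values on every array were, by role group, the 2 of highest mean and the 1 of largest range, the 5 smallest p-values, the 5 furthest from the median gene, the c ring genes, Ndufa4 and Ndufa4l2, 33 in all, of which 1 is not reported here; the others named were chosen after their values were seen. The genes, the lists of other pathways and the cell type markers were chosen with earlier results of these data known. Alternatives were 4 other scalings, normexp background correction with an offset of 50, other filters and probe choices, scan as a covariate, and each array left out in turn. Keeping outlier spots was chosen after seeing the data.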

Additional observations from a re-analysis of the deposited data

How the results depend on the processing

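Over 16 alternatives, 0 of the 33 genes given in full passed the limma test in any of 528 combinations (smallest adjusted p 0.329), and the number passing over all genes was 0 in each leave-one-out fit. Of 240 combinations of the other results with an alternative, 207 stayed near the main value and 33 moved. The scaling moved ZT4 most: the median deviation of the 70 genes fell from 0.90 to 0.15 with quantile normalization and 0.15 in the authors' values. The number of genes at least 2-fold from the other arrays at ZT4 fell from 40 to 9, 9 and, with cyclic loess, 16. At ZT8 the number, 3 in the main analysis, was 0 with quantile normalization, cyclic loess and the authors' values, and 1 with the 75th percentile of detected probes or within the shared scan. At ZT12 it was 0 in place of 1 with quantile normalization and the authors' values. At ZT16 it was 4 with quantile normalization and the authors' values, 2 with cyclic loess and with detected probes, and 0 with normexp, in place of 1. Leaving out 1 array at a time gave 0 to 6 genes at ZT8, 0 to 2 at ZT12 and 0 to 4 at ZT20. It gave 0 to 1 of the 70 genes, and 347 to 4026 of all genes, at an unadjusted p under 0.05, and scan as a covariate gave 440 of all genes. The cause of these moves was not tested. No paired analysis was possible because each time point had 1 array. All 70 probes were well above background on all 6 arrays, the effect of dim signal was not tested, and ZT0 and ZT4 each stood alone in a scan.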
